A study of Sus scrofa with 2 samples.

Results

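The genes of the DNA methylation and demethylation machinery were followed in ZBTB16 CUT&Tag peak lists from pig immature spermatogonia. They were 10 genes chosen by name out of 16491 protein-coding genes with a symbol: DNMT1, DNMT3A, DNMT3B and UHRF1, which place or maintain methyl groups, TET1, TET2 and TET3, which oxidise them, and TDG, MBD4 and GADD45A, which act in excision and repair. Every peak that the authors assigned to 1 of these genes was taken, whatever its class. There were 7 such peaks among 10273 in replicate 1 and 6 among 7301 in replicate 2. The material was wild-type (WT) immature spermatogonia from pig testis, with 100000 cells per library, and both libraries belong to 1 group with no treatment and no second genotype. The labels give no age for these cells and do not say whether the libraries came from separate animals or cultures. CUT&Tag brings a transposase to a chromatin protein through an antibody, here against ZBTB16 (PLZF), a zinc finger factor of undifferentiated spermatogonia. An IgG library, made without the primary antibody, was not analysed here, so unspecific signal was not measured.

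In mammals, DNA methylation at CG sites is copied after replication by DNMT1, which UHRF1 guides to half-methylated sites, and is set anew by DNMT3A and DNMT3B. Removal runs through TET enzymes, which oxidise 5-methylcytosine, and through TDG, a glycosylase that cuts out the oxidised bases before base excision repair refills the gap. MBD4 is a second glycosylase that acts on mismatched thymine or uracil at CG sites, and GADD45A is a stress-induced adaptor that has been linked to repair-based demethylation. Male germ cells erase and rebuild their methylation before birth, and spermatogonia keep the new pattern through their divisions.

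Peaks are not expression, so the lists cannot show whether the cells carried the labelled identity. Of 7 marker genes of undifferentiated spermatogonia, ID4 and ETV5 had a promoter peak in both libraries (28.6%, near the 20.8% of all protein-coding genes). ZBTB16, SALL4 and NANOS2 had no assigned peak, as did 49.3% of all genes. Among 3 markers of differentiating spermatogonia, replicate 1 showed a promoter peak at 0 and replicate 2 at 1. None of 8 markers of Sertoli, Leydig and peritubular cells had a promoter peak in either library. Over all genes the share was 32.8% in replicate 1 and 24.9% in replicate 2. These marker lists are too short to be set apart from all genes. Fold enrichments are the authors' own, 1 per peak, and compare a summit with the caller's background, whose source is not given. Fragments at the summit were recovered from the deposited fold and p-value, and the median promoter peak had 19 in replicate 1 and 16 in replicate 2. Positions are on Sscrofa11.1.

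By fold, TDG carried the strongest peak of the 10 genes, DNMT1 a strong one and GADD45A an ordinary one, each at its promoter in both libraries. By summit fragments, DNMT1 (28 in replicate 1, 22 in replicate 2) and GADD45A (28 and 23) were alike. These 3 of 10 genes stand beside 20.8% of all protein-coding genes with a promoter peak in both libraries, a share from which 3 of 10 is not far, and no test was made of a list this small. By single library, 4 of the 10 genes had a promoter peak in replicate 1, against 32.8% of all genes, and 3 in replicate 2, against 24.9%. An assigned peak of any class was present in both libraries at 4 of 10 genes, against 28.2% of all genes, and in either library at 7 of 10, against 50.7%. TET3, UHRF1 and MBD4 had no assigned peak in either library, as did 49.3% of all genes. Promoter here means the authors' class, covering the transcription start site (TSS) and the 3 kb before it.

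**Figure D1:**
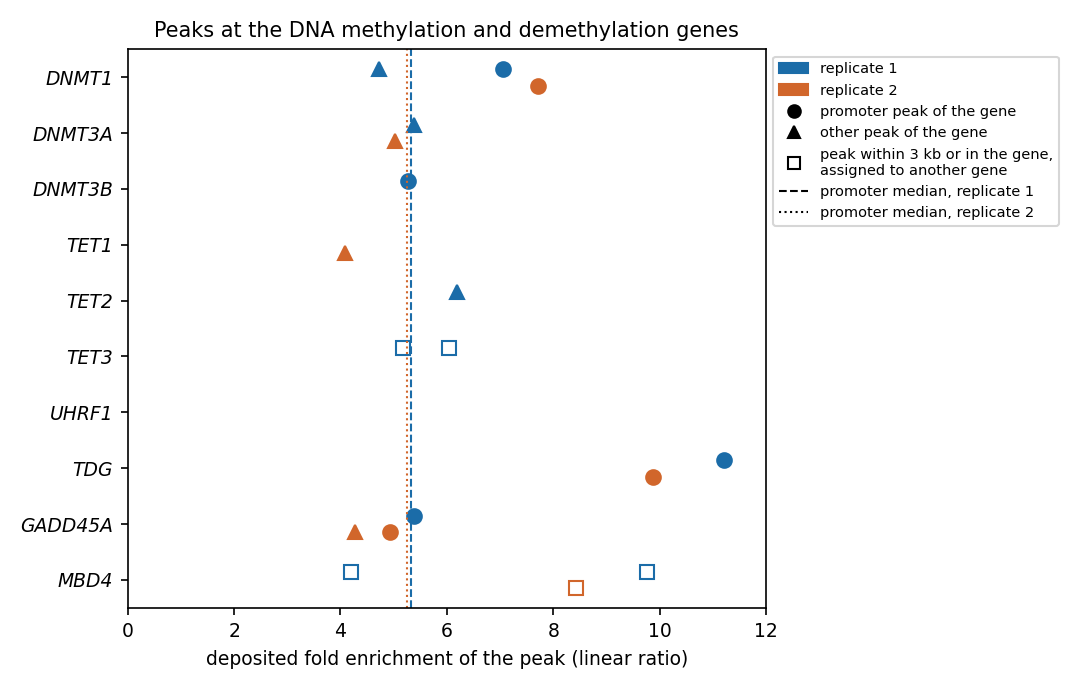
Deposited fold enrichment (x axis, linear ratio) of each peak at the 10 genes (rows). Colour gives the library, filled circles are promoter peaks of the gene, triangles its other peaks and open squares peaks in the gene or within 3 kb of it that were assigned to another gene. Dashed and dotted lines are the median promoter peak of replicate 1 (5.33) and replicate 2 (5.25). TDG lies farthest right, and the open squares of MBD4 at 9.77 and 8.43 come next.

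TDG, the glycosylase that removes oxidised methylcytosine, lies on the minus strand of chromosome 5 (80473233 to 80492295). Its promoter peak spanned chr5:80491638-80492497 in replicate 1 and chr5:80491643-80492435 in replicate 2, over the TSS at 80492295. Its enrichment was 11.2-fold in replicate 1 and 9.88-fold in replicate 2. These values placed it at rank 17 of 6251 promoter peaks in replicate 1 and at rank 28 of 4673 in replicate 2. At the summit, replicate 1 had 62 fragments, with an exact Poisson interval at 95% of 47.5 to 79.5, and replicate 2 had 40 (28.6 to 54.5). The background under it was also high: 4.62 fragments in replicate 1, above that of 92.2% of promoter peaks, and 3.15 in replicate 2, above that of 85.2%. Both summits lay inside the gene, 219 bp past the TSS in replicate 1 and 218 bp in replicate 2. The summits were 1 bp apart, and 6.58% of 3936 promoter peaks shared by the libraries had summits within 1 bp. The median gap over those pairs was 92 bp, and it was 25 bp at DNMT1, 2 bp at the MBD4/IFT122 peak described further on and 166 bp at GADD45A, which lay beyond the median. No other peak was assigned to TDG.

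DNMT1, the maintenance methyltransferase, lies on the minus strand of chromosome 2 (68981564 to 69040364). Its promoter peak spanned chr2:69029167-69030069 in replicate 1 and chr2:69029398-69029874 in replicate 2. The fold was 7.05 in replicate 1 and 7.72 in replicate 2, above 85.2% and 93.5% of the promoter peaks of those libraries. The summit held 28 fragments in replicate 1 (18.6 to 40.5) and 22 in replicate 2 (13.8 to 33.3). The start that this peak covered, at 69029749, is that of the transcript named in the authors' assignment and lies 10.6 kb inside the annotated gene. At the outer start, at 69040364, neither library had a peak within 1 kb. The nearest was in intron 1 of the longer transcript in replicate 1 only (chr2:69037038-69037395), 2969 bp past that start, with a fold of 4.72 from 11 fragments (5.49 to 19.7). Only 22.6% of the 678 replicate 1 peaks with 11 summit fragments recurred in replicate 2, and 15.3% of the 118 intronic ones.

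GADD45A, the stress-induced adaptor, lies on the minus strand of chromosome 6 (144940702 to 144944089). Its promoter peak spanned chr6:144943601-144944233 in replicate 1 and chr6:144943446-144944195 in replicate 2. The fold was 5.39 in replicate 1 and 4.94 in replicate 2, near the middle of the promoter peaks (percentiles 51.9 and 39.4). Its summit, however, held as many fragments as that of DNMT1, 28 in replicate 1 (18.6 to 40.5) and 23 in replicate 2 (14.6 to 34.5). The lower fold went with a higher background, at 4.38 fragments in replicate 1 and 3.86 in replicate 2, against 3.11 and 1.98 at DNMT1. Ranked by fragments in place of fold, GADD45A stood at percentile 80.4 in replicate 1 and 80.6 in replicate 2. The intervals of the fragments of GADD45A and DNMT1 overlapped almost fully, so these counts do not order the pair. A further peak, in an intron of GNG12, was assigned to GADD45A in replicate 2 only (chr6:144884693-144885067), 59.0 kb past the GADD45A start, with a fold of 4.28 from 9 fragments.

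By summit fragments, TDG was above DNMT1 and GADD45A in replicate 1, where the intervals did not overlap. In replicate 2 the interval of TDG overlapped both of the others. All 3 peaks had their summits downstream of the TSS, at 219, 161 and 195 bp for TDG, DNMT1 and GADD45A in replicate 1, and at 218, 186 and 29 bp in replicate 2. Among all promoter peaks that spanned a TSS, 49.4% of 5169 in replicate 1 and 49.5% of 3851 in replicate 2 also had a downstream summit. The position was not tested for the 3 genes.

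**Figure D2:**
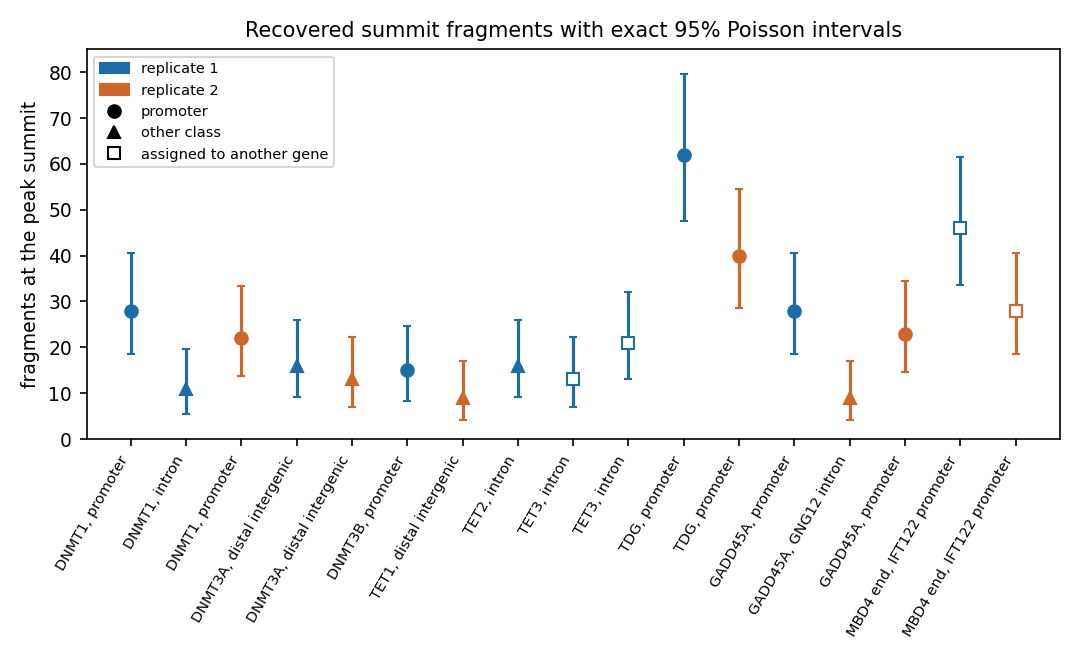
Fragments at the summit (y axis) of each peak at the genes, with exact 95% Poisson intervals as bars and the library as colour. Circles are promoter peaks, triangles other classes and open squares peaks assigned to another gene; the peak of EFCAB12 near MBD4 is left out. TDG reaches 62 and 40 fragments, while every peak found in 1 library only has 21 or fewer.

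No uneven split of fragments between the libraries was called at the 3 promoters. Counts this small leave wide intervals, so equal binding in the libraries is not shown. The expected split was 55.2% of fragments in replicate 1, from the ratio of the lowest backgrounds of the libraries (1.23), which stands in for relative depth. TDG had 60.8% of its 102 fragments in replicate 1 (exact binomial test with Benjamini-Hochberg adjustment over 5468 shared peaks, two-sided, adjusted p = 1, unadjusted p = 0.275). DNMT1 had 56% (41.3 to 70) and GADD45A 54.9% (40.3 to 68.9), each with adjusted exact p = 1. Over all shared peaks the same exact binomial test called 0% of peaks as higher in replicate 1 and 0% as higher in replicate 2, and 63 peaks had an unadjusted p under 0.05. Only peaks present in both lists enter this test, which narrows the spread.

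**Figure D3:**
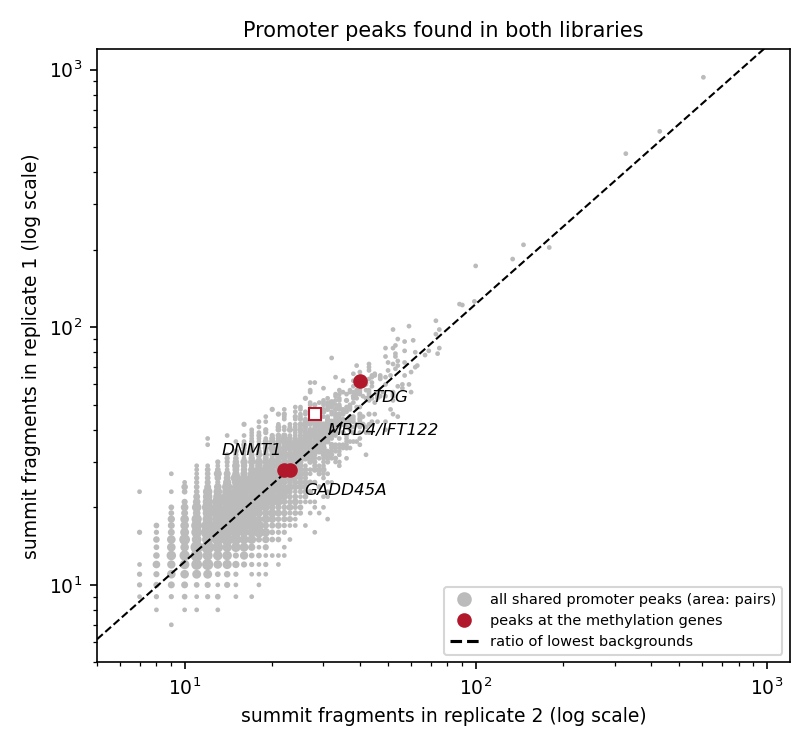
Summit fragments in replicate 1 (y axis) against replicate 2 (x axis), both on log scales, for all 3936 promoter peaks found in both libraries (grey, area by number of pairs). The dashed line is the ratio of lowest backgrounds, 1.23. DNMT1 and GADD45A lie beside it, and TDG and the MBD4/IFT122 peak lie somewhat above it within the grey cloud.

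DNMT3B and DNMT3A, the de novo methyltransferases, had no promoter peak that recurred. DNMT3B lies on the plus strand of chromosome 17 (36345715 to 36386076). It had a promoter peak in replicate 1 only (chr17:36345302-36345732), with a fold of 5.26, its summit 283 bp upstream of the TSS and 15 summit fragments (8.4 to 24.7). Of the 598 replicate 1 peaks with 15 fragments, 45.7% recurred in replicate 2, and of the 388 promoter ones 50.8%. The absence of the DNMT3B peak there is thus within what peaks of this height showed. Over all genes, 12% had a promoter peak in replicate 1 and none in replicate 2. The nearest replicate 2 peak was 21.5 kb away, at COMMD7.

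DNMT3A lies on the plus strand of chromosome 3 (113501972 to 113609148) and had 1 distal intergenic peak in each library, at different places. The replicate 1 peak (chr3:113491658-113492085) lay 9887 bp before the outer start, with a fold of 5.38 from 16 fragments (9.15 to 26). The replicate 2 peak (chr3:113615963-113616460) lay 6815 bp past the other end of the gene, with a fold of 5.02 from 13 fragments (6.92 to 22.2). The authors' distance for this replicate 2 peak, 29968 bp, is counted from the start of a shorter transcript at 113585995. DNMT3A thus counts among the 4 genes with an assigned peak in both libraries without any shared position. Neither library had a peak in the gene itself. Of the 574 replicate 1 peaks with 16 fragments, 52.8% recurred in replicate 2, and of the 62 distal intergenic ones 56.5%. Most of the 533 replicate 2 peaks with 13 fragments recurred in replicate 1 (76.4%), as did 65.9% of the 44 distal intergenic ones. The DNMT3A peaks did not recur.

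The TET genes, which encode the dioxygenases that start active demethylation, had no promoter peak in either library. TET1, on the plus strand of chromosome 14 (71675671 to 71812732), had a distal peak in replicate 2 only (chr14:71665796-71666208), 9463 bp before its start, with a fold of 4.09 from 9 fragments (4.12 to 17.1). Among the 446 replicate 2 peaks with 9 fragments, 44.4% recurred in replicate 1, and among the 95 distal intergenic ones 30.5%. TET2, annotated on the minus strand of chromosome 8 (116413253 to 116546976), had a peak in intron 1 in replicate 1 only (chr8:116519170-116519653), 25.9 kb past the start. Its fold of 6.19 was above 94.7% of the 1140 intronic peaks of that library, and it rested on 16 fragments (9.15 to 26). Of the 574 replicate 1 peaks with 16 fragments, 52.8% recurred in replicate 2, and of the 43 intronic ones 30.2%. In replicate 2 the nearest peak lay 26.8 kb outside TET2 and was assigned to PPA2 (4.88-fold).

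TET3 (chromosome 3, 68918896 to 69020406) had no assigned peak, yet replicate 1 held a pair of peaks inside it. The authors placed them in introns of TET3 and assigned them to LOC102163719, a neighbouring gene that overlaps the upper end of TET3. The peak in intron 2 (chr3:68980126-68980428) had a fold of 5.18 from 13 fragments (6.92 to 22.2). The peak in intron 1 (chr3:69004981-69005479) had a fold of 6.04 from 21 fragments (13 to 32.1). Neither overlapped a replicate 2 peak, and the nearest replicate 2 peak lay 18.2 kb outside the gene. Of the 699 replicate 1 peaks with 13 fragments, 31.5% recurred in replicate 2, and of the 95 intronic ones 17.9%. Most of the 343 with 21 fragments did recur (74.3%), while of the 15 intronic ones 46.7% did.

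UHRF1, the factor that guides DNMT1 to half-methylated sites, had no peak in or within 3 kb of the gene in either library (chromosome 2, 73898061 to 73937727). The nearest peak lay 7.7 kb away in replicate 1 and 7.73 kb away in replicate 2. It was the promoter peak of KDM4B, a histone H3 lysine demethylase, with a fold of 5.72 from 34 fragments in replicate 1 and 7.32 from 30 fragments in replicate 2. KDM4B was named after its values were seen. Peaks with few fragments were often found in 1 library only, so the empty UHRF1 locus means that no peak was detected at this depth.

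MBD4, the glycosylase for mismatches at CG sites, had no assigned peak, but a strong peak of both libraries covered its upper end (chromosome 13, 68816677 to 68828559). This peak was assigned to IFT122, a subunit of intraflagellar transport, whose start at 68828710 lies 150 bp beyond MBD4. It spanned chr13:68828272-68829060 in replicate 1, with 288 bp inside MBD4, and chr13:68828456-68828988 in replicate 2, with 104 bp inside it. The fold was 9.77 in replicate 1 and 8.43 in replicate 2, above 98.7% and 96.6% of promoter peaks, and among the peaks at the 10 genes TDG alone was higher. The summit held 46 fragments in replicate 1 (33.7 to 61.4) and 28 in replicate 2 (18.6 to 40.5), intervals that overlap those of TDG. It lay between the genes in both libraries, 42 and 44 bp beyond the end of MBD4. The split of its fragments, 62.2% in replicate 1, did not pass the exact binomial test (Benjamini-Hochberg adjusted p = 1, unadjusted p = 0.244). The gene table used here gives no strand for MBD4. In human the pair is head to head, so that this end would be the start of MBD4. A weaker peak of EFCAB12 in replicate 1 lay 2730 bp before the other end of MBD4 (4.19-fold, 11 fragments).

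**Figure D4:**
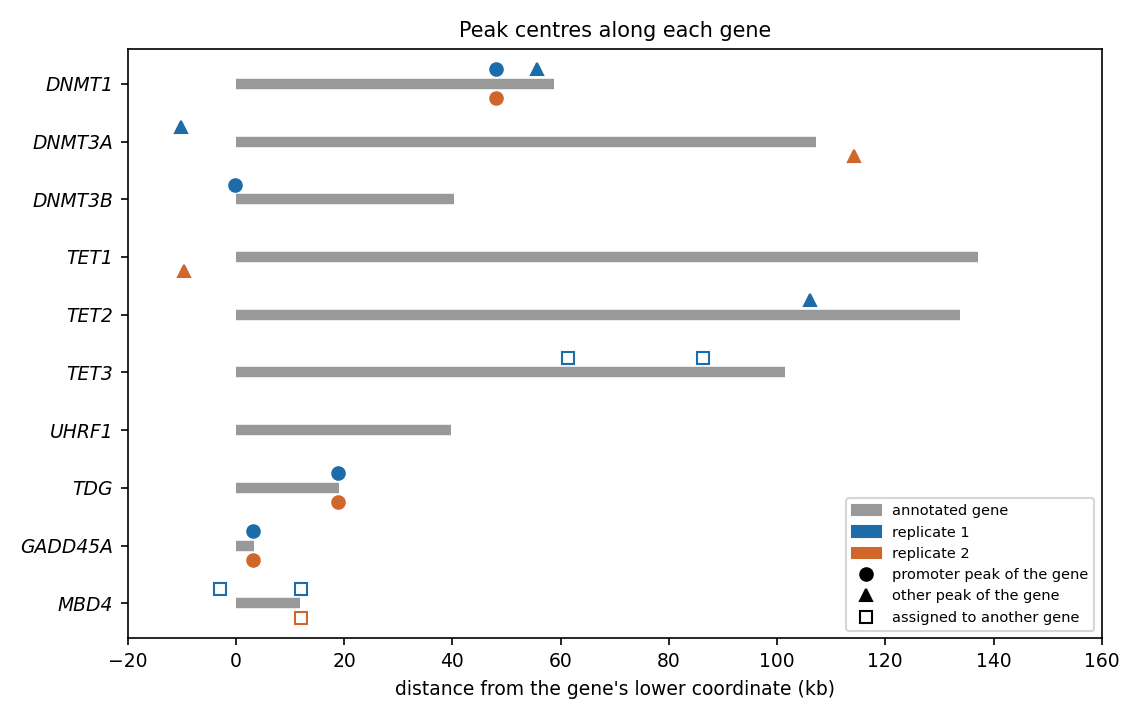
Centres of the peaks along each gene, as distance in kb from its lower coordinate (x axis), with the annotated gene as a grey bar. Points above a bar are replicate 1 and points below it replicate 2, with circles for promoter peaks, triangles for other peaks of the gene and open squares for peaks assigned to another gene; the GADD45A peak in GNG12 lies outside the range. Positions coincide in both libraries at DNMT1, TDG, GADD45A and the upper end of MBD4, and UHRF1 has none.

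Of the genes with no assigned peak, 9.82% had in both libraries a neighbour's peak within 1 kb of a gene end (5.54% one that reached the end), and MBD4 was the 1 such gene among the 3 here. Counted by any peak no more than 1 kb from a gene end, whichever gene it was assigned to, TDG, GADD45A and MBD4 counted in both libraries (3 of 10), against 29% of all genes. DNMT1 drops out by this count because its peak lies at the inner start. Counting a promoter peak or any peak that reaches a gene end gave 4 of 10 genes, DNMT1, TDG, GADD45A and MBD4, against 24.4% of all genes.

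Among 47 other genes of DNA methylation, 8 had a promoter peak in both libraries (17%, against 20.8% of all genes). A further 12 had one in 1 library only, from 9 to 30 fragments, against 16.1% of all genes, and 21 had no assigned peak, against 49.3%. By single library, 17 of the 47 had a promoter peak in replicate 1, against 32.8% of all genes, and 11 in replicate 2, against 24.9%. Of 15 genes that write methylation or direct it, SETDB1, a histone H3 lysine 9 methyltransferase, had folds of 5.08 and 4.25 in replicate 1 and replicate 2, and NSD1, a histone H3 lysine 36 methyltransferase, 3.74 and 4. DNMT3L, the germline cofactor of the de novo enzymes, TRDMT1, a tRNA methyltransferase, and HELLS, a chromatin remodeller, had no assigned peak. SETD2, another H3 lysine 36 methyltransferase, had a promoter peak in replicate 2 alone by assignment (7.99-fold, 30 fragments). The overlapping replicate 1 peak (5.35-fold, 20 fragments) had been assigned to LOC110256227. SETD2 was named after its values were seen, as the 1 gene of the 12 whose peak was overlapped by a peak in the other library.

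None of the 7 genes listed here as methylation readers had a promoter peak in both libraries, and MBD2 and MBD3 had no assigned peak. Of 17 further genes of demethylation and base excision, 3 had a promoter peak in both libraries. APEX1, the endonuclease that acts after a glycosylase such as TDG, had folds of 6.49 in replicate 1 and 6.76 in replicate 2. LIG3, which seals the repaired strand, had 5.03 and 4.99, and XRCC1 had 4.94 and 4.47. NEIL1 and PARP1 had no assigned peak. Of 8 genes of methyl donor and cofactor supply, 3 had a promoter peak in both libraries. These were AHCY, which clears S-adenosylhomocysteine (7.46 and 6.43), MTR, methionine synthase (7.99 and 5.77), and MAT2A, which makes S-adenosylmethionine (5.44 and 4.7). MAT1A had no assigned peak. By role, promoter peaks of replicate 1 were at 4 of 15 genes that write or direct methylation, 1 of 7 readers, 6 of 17 of demethylation and base excision and 6 of 8 of donor and cofactor supply. In replicate 2 they were at 4, 0, 4 and 3 genes of these groups. Over all genes the share was 32.8% in replicate 1, 24.9% in replicate 2 and 20.8% in both libraries. The roles are short lists, and none was tested against these shares. In fold, TDG was above all 8 recurrent promoters of the 47 genes in both libraries, and DNMT1 lay below AHCY and MTR in replicate 1 and above both in replicate 2.

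**Figure D5:**
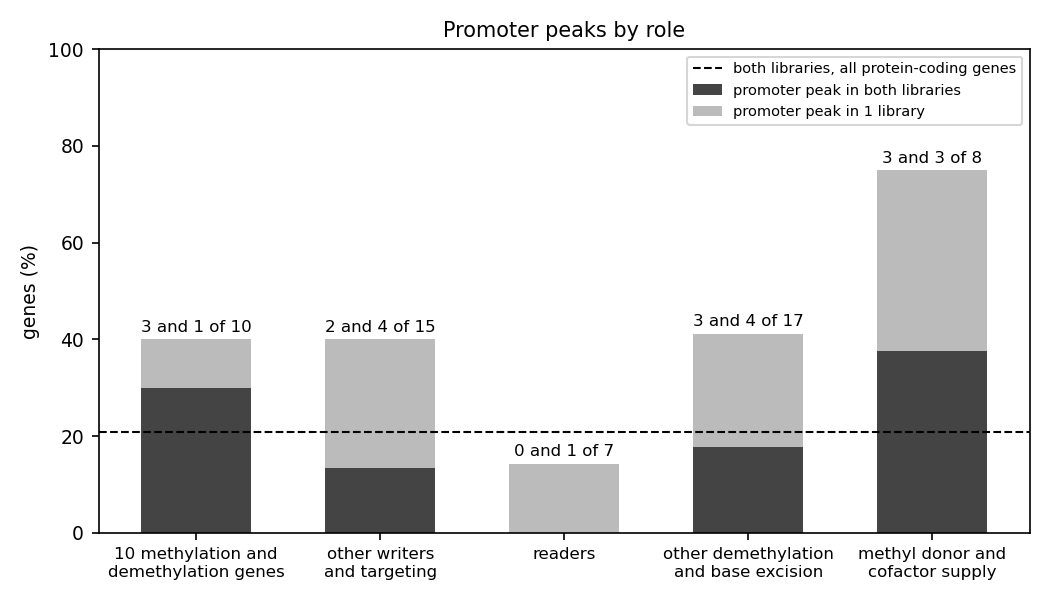
Percentage of genes (y axis) with a promoter peak in both libraries (dark) or in 1 library (light), for the 10 genes and for the other genes of the pathway by role (x axis). Numbers over the bars give genes with a peak in both and in 1 library out of all genes of the group. The dashed line is the share of all protein-coding genes with a promoter peak in both libraries, 20.8%, and no readers' gene contributes a dark bar.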

How the data were processed

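Peaks were deposited by the authors for each library separately, on Sscrofa11.1 (build per the submitters' processing notes). Aligner, caller and control: not given in the sources used here. Per the file headers, the deposited values are a linear fold ratio, a p-value and a q-value (both as −log10), a score that was not used, and 1 assigned gene per peak. No deposited q-value, as −log10, was below 1.31. Sequencing depth is not given. Summit fragments and background were recovered by taking the fold as (fragments + 1)/(background + 1) and the p-value as the Poisson tail above the fragments, with whole fragments found for 100% of peaks at a relative tolerance of 1e-05. The recovery and the split test were run on simulated data. Simulated peaks were made with the same formulas, so they check only that these can be inverted. Uneven splits were simulated at 1 size of change, and no power is given for the peaks of these genes. Intervals are exact at 95% and cover counting error only.

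Shared peaks overlapped by at least 1 bp (5468, of which 11 had identical ends). Splits were tested by two-sided exact binomial tests with Benjamini-Hochberg adjustment, threshold 0.05. They compare these libraries only. Genes were those of the RefSeq table for Sscrofa11.1, which matched all 10 and all 47 listed symbols. It gives no strand, so windows were set around either gene end in place of the TSS. Members and lists were chosen with earlier results of these data known. All members are named, and of each role up to 4 genes with a promoter peak in both libraries and up to 3 with no peak; some genes that this would name are not reported here. Alternatives were a higher fold, a −log10 q-value of at least 5, equal list lengths, other promoter windows, each library alone, another expected split, reciprocal overlap and other rankings. Software: scipy 1.17.1, pandas 2.3.3 and numpy 2.4.6 under Python 3.11.15, with figures by matplotlib 3.10.9.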

Additional observations from a re-analysis of the deposited data

Results flagged for a closer look

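The peaks inside TET3 were singled out because they were not credited to that gene by the authors' assignment and so enter none of the counts of assigned peaks. Both were found in replicate 1 only. The summit in intron 2 held 13 fragments over a background of 1.7, and the summit in intron 1 held 21 over 2.64. As called peaks they exceed their background by selection, so this is a description.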

How the results depend on the processing

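No paired analysis was possible because both libraries belong to 1 group. The count of 3 of 10 genes with a promoter peak in both libraries moved between 2 and 4 over its alternatives. It was 2 with peaks at or above the median fold, where GADD45A fell out with 1 promoter peak left, against 11.6% of all genes. With a replicate left out it became a count in a single library, 3 to 4, against 24.9% to 32.8% of all genes. The alternative that credits peaks reaching a gene end was chosen after seeing the data and gave 4. The count with any assigned peak in both libraries (4) was 3 to 6 while the share of all genes moved between 14.2% and 44.9%, and the count by gene ends (3) was 3 to 4 while that share moved between 17.1% and 42.6%. Promoter peaks per gene are summed over both libraries, 2 at DNMT1, TDG and GADD45A and 1 at DNMT3B. With a replicate left out they went, by construction, to 1 at the first 3 genes and to 0 to 1 at DNMT3B. The pathway count of 8 fell to 3 with peaks at or above the median fold (11.6% of all genes) and to 4 at a −log10 q-value of at least 5 (12.7%). With a replicate left out it became a count in a single library, 11 to 17, while the share of all genes was 24.9% to 32.8%. The uneven splits (0) became 1 of the shared peaks (0.0183%) when the expected split came from summed fragments. By −log10 q-value and by fragments in place of fold, the percentile was 87 and 77.7 for DNMT1 in replicate 2, and 38.5 and 26.7 for DNMT3B in replicate 1. For TDG it was 99.3 and 99 in replicate 1, and 98.5 and 97.3 in replicate 2. For GADD45A it was 71.7 and 80.4 in replicate 1, and 65.8 and 80.6 in replicate 2. Fragments, by construction, take no account of the background, and the cause of the other changes was not tested. No value reversed.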
